A study of Homo sapiens with 12 samples.

Results

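The liver secretes most of the proteins dissolved in blood plasma. Here 59 human genes for such proteins were followed, chosen as a list of liver plasma protein genes and matched by symbol to the Ensembl identifiers of the deposited expression table, which held 60664 identifiers. They comprised 14 carriers and binding proteins, 6 other secreted proteins, 12 coagulation proteins, 9 anticoagulant or fibrinolytic proteins, 8 protease inhibitors and 10 complement proteins. Their loci lay on 18 chromosomes, and gene coordinates below are those of GENCODE release 29 on GRCh38. RNA was sequenced from 12 samples of the cultured human hepatoma lines Huh-7 and MHCC-97H, 3 in each of 4 groups. The groups were Huh-7 transfected with si-CENPU, an siRNA that targets CENPU (labelled CENPU knockdown), Huh-7 with the control siRNA si-NC (labelled WT), MHCC-97H with si-CENPU and MHCC-97H with si-NC. CENPU encodes a protein of the inner kinetochore, the complex that joins chromosomes to the spindle. The medium of all groups was DMEM with antibiotics and 10% fetal bovine serum, every group had been transfected, and untransfected cells were not analysed here. The labels name the siRNAs but neither their sequences nor the hours between transfection and harvest, and they do not say whether the 3 samples of a group were separate cultures. P-values therefore measure only how far these samples spread, and that spread may be technical. The tissue label reads hepatocellular carcinoma, although the cell line label marks every sample as a cultured line.

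In the liver, hepatocytes make plasma proteins and release them through the secretory pathway. Carriers such as albumin, transferrin and transthyretin move fatty acids, iron and thyroid hormone. Coagulation factors are mostly zymogens of serine proteases that activate one another until thrombin cleaves fibrinogen into fibrin, and serpins and other inhibitors hold these proteases in check. Complement proteins mark and lyse microbes through a similar protease cascade. Many of these genes are acute-phase genes, which the liver turns up or down in inflammation, and their promoters are known targets of liver-enriched transcription factors such as HNF4A, FOXA and C/EBP proteins.

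Promoter sequences are shown for 4 genes whose RNA differed widely between the lines and for PROS1, the tested gene of the list whose lines overlapped. The choice was made after the values were seen. Each sequence is the 170 bases before the RefSeq transcription start on GRCh38.p14, 5′ to 3′ on the gene's own strand, and capitals mark matches on either strand to TTGCNNAA, a core of C/EBP factors, or to TGTTTAC or TGTTTGC, letters of FOXA factors. FGB and SERPINA1 have more than 1 entry, of which 1 is shown. ALB occupies chr4:73404117-73404286 on the plus strand, FGA chr4:154590743-154590912 on the minus strand, FGB chr4:154562841-154563010 on the plus strand, SERPINA1 chr14:94388603-94388772 on the minus strand and PROS1 chr3:93973897-93974066 on the minus strand.
ALB: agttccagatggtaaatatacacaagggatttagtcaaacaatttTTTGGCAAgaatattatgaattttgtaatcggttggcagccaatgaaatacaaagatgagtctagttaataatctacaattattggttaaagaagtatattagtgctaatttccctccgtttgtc
FGA: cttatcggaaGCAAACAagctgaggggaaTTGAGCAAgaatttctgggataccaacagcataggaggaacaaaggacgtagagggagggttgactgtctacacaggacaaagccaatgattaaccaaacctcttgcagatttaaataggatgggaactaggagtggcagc
FGB: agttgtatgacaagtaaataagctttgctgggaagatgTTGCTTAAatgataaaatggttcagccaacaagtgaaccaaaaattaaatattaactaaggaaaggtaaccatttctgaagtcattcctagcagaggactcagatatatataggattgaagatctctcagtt
SERPINA1: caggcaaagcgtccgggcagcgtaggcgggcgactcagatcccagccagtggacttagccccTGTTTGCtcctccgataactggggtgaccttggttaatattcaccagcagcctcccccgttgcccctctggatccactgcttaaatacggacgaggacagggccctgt
PROS1: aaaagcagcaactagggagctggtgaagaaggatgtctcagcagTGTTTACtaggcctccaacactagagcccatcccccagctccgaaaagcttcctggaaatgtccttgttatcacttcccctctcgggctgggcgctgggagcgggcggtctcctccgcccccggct
The C/EBP letters began 125 bases before the start in ALB, 141 in FGA and 132 in FGB. The FOXA letters began 160 bases before it in FGA, 108 in SERPINA1 and 126 in PROS1, so the promoter of the gene whose lines overlapped also held a match. Over the 250 bases before each start, searched on both strands, TTGCNNAA stood in 15 (31.2%) of the 48 members with a promoter entry and in 11% of the 27305 genes in the table. The FOXA letters TGTTTAC stood in 5 members (10.4%) and 3.66% of all genes, and the variant TGTTTGC in 7 members (14.6%) and 3.97%. The HNF4 element CAAAGTCCA stood in 1 member (2.08%) and 0.403% of all genes. TGTTTGC ends in the letters that open TTGCNNAA, so 1 stretch can match both. These shares describe letters in a window, not bound sites, and 11 members had no promoter entry.

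Expression was deposited as TPM, a transcript abundance, which divides by transcript length and scales each library to a fixed total. The unit keeps no sequencing depth, so no counting interval is given, and a listed 0 may be a failed estimate and not an absent RNA. Replicate 1 of the Huh-7 controls correlated least with its line, at a mean Pearson r of 0.978 to the other Huh-7 libraries, against 0.985 to 0.987 for those. Between 18639 and 20900 genes lay above 0 per library, and mitochondrially encoded genes took between 1.56% and 6.3% of the TPM. CENPU itself was listed at 0.17, 0.11 and 0.45 TPM in si-CENPU-treated Huh-7 and 0.56, 0.84 and 0.53 TPM in si-NC-treated Huh-7. The MHCC-97H values were 0.22, 0.45 and 0.24 TPM with si-CENPU and 1.17, 0.83 and 0.89 TPM with si-NC. Knockdown and control values of CENPU did not overlap in either line, the knockdown being lower, with an exact two-sided permutation p of 0.1 in each, the smallest that 3 against 3 samples allow. Of the 10 hepatocyte markers, ALB, APOB, TTR, SERPINA1, AFP and APOA1 averaged at or under 0.55 TPM in both MHCC-97H groups, while the keratins KRT8 and KRT18 averaged over 1000 TPM in all 4 groups. Huh-7 thus carried the hepatocyte markers, with APOA2 under 1 TPM as the exception, and in MHCC-97H the secreted ones were at or near 0. Bile duct markers split between the lines, with KRT19 at 189 and 192 TPM in Huh-7 si-CENPU and si-NC and KRT7 at 551 and 580 TPM in MHCC-97H si-CENPU and si-NC. Endothelial markers summed to at most 0.68 TPM and fibroblast or stellate markers to at most 4.3 TPM in any library. Immune markers, mostly CD68 and LYZ, summed to 64.9 and 60.7 TPM in Huh-7 si-CENPU and si-NC and to 18.2 and 19.2 TPM in MHCC-97H si-CENPU and si-NC.

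Huh-7 expressed most of the plasma protein list and MHCC-97H little of it. The 59 genes summed to 7564 ± 810 TPM in Huh-7 si-CENPU and 6749 ± 313 TPM in Huh-7 si-NC, against 50.3 ± 7.97 TPM in MHCC-97H si-CENPU and 49.7 ± 7.28 TPM in MHCC-97H si-NC (SD, n = 3 each). That was 0.757% and 0.676% of the TPM of the Huh-7 groups and 0.00504% and 0.00497% of that of the MHCC-97H groups. In RNA from whole cultures, fewer expressing cells and less RNA per cell cannot be told apart. In Huh-7, 40 genes averaged at least 1 TPM with si-CENPU and 41 with si-NC, of which 28 in each group averaged at least 10 TPM and 7 at least 100 TPM. In MHCC-97H the same limits were reached by 8 (si-CENPU) and 9 (si-NC), by 2 and by 0 genes. At 0 in all 3 libraries were 23 genes in MHCC-97H si-CENPU and 29 in MHCC-97H si-NC, and 2 in each Huh-7 group. The 5 highest genes held 83.2% (si-CENPU) and 81.7% (si-NC) of the summed level in Huh-7, and 83.6% and 84.3% in MHCC-97H.

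**Figure D1:**
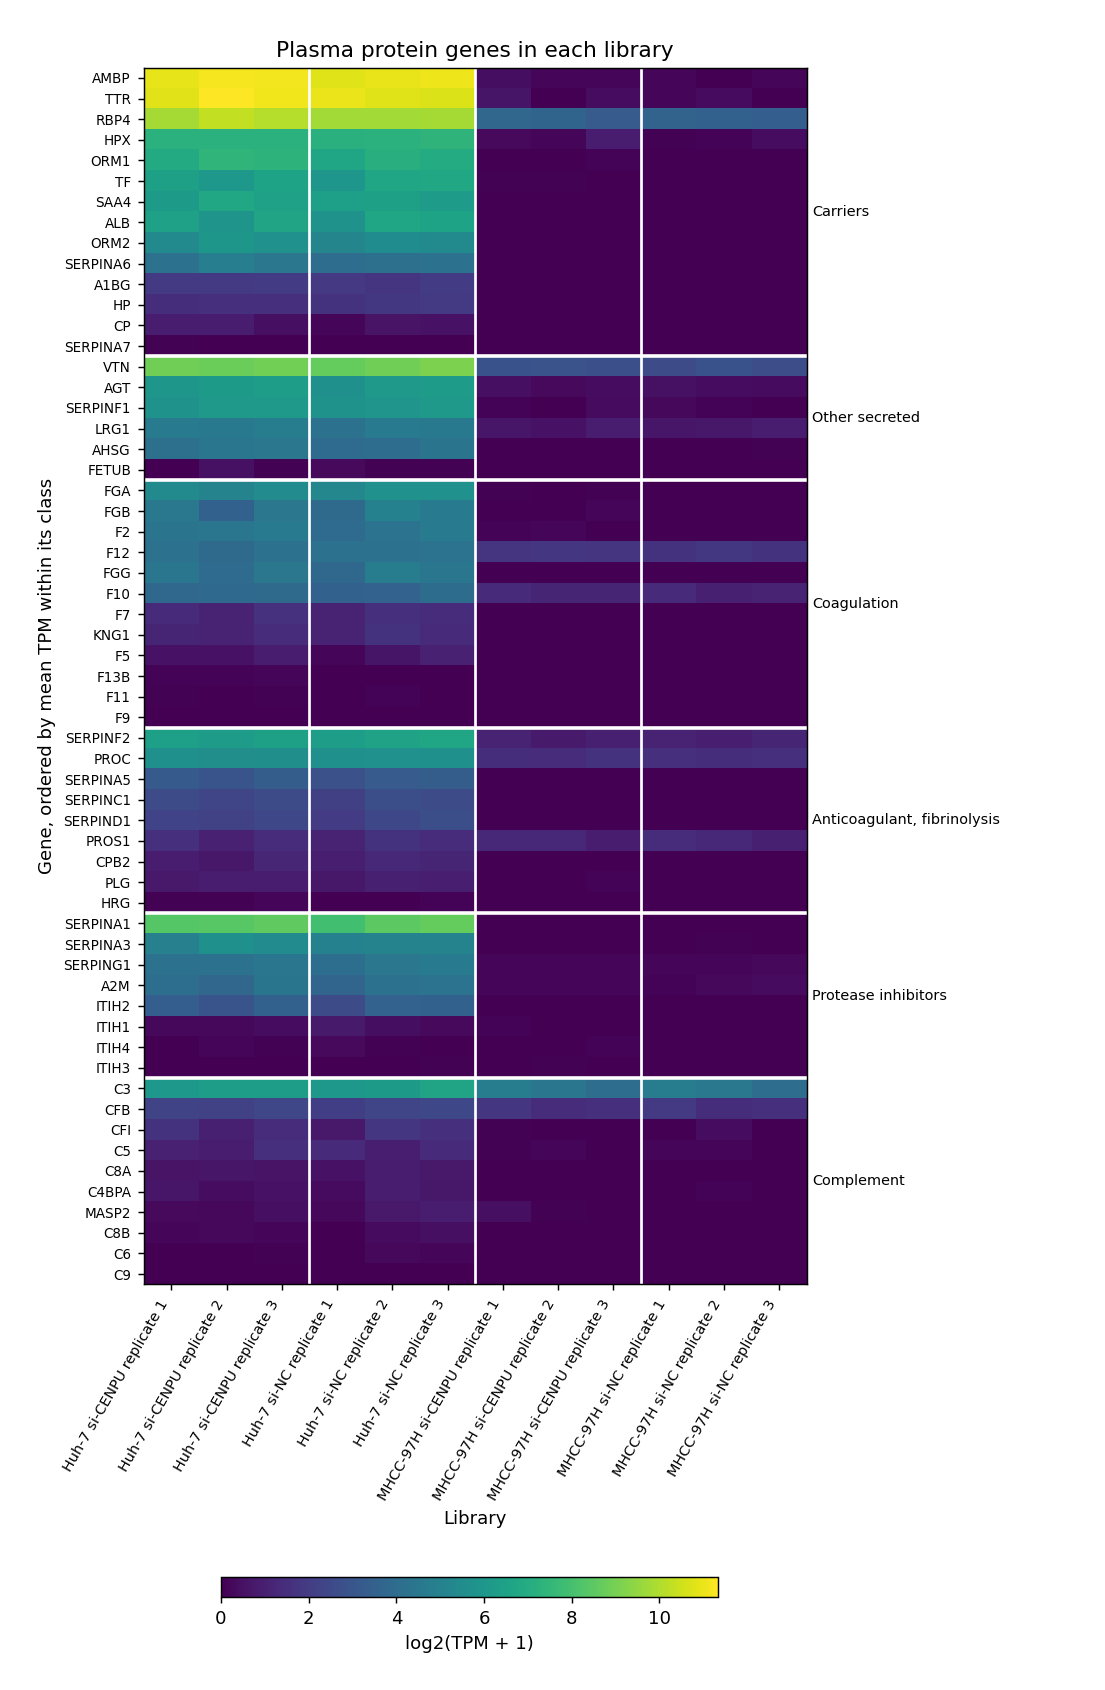
Level of each of the 59 genes in each of the 12 libraries as log2(TPM + 1), with libraries as columns in 4 groups of 3 and genes as rows within their class, ordered by mean TPM. The 6 Huh-7 columns are bright for carriers and many other classes, and the 6 MHCC-97H columns are dark except for C3, RBP4, VTN and a few fainter rows.

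Between the lines under the control siRNA, 35 of the 36 tested members were higher in Huh-7 si-NC than in MHCC-97H si-NC and 0 were lower. Testing used limma on log2(TPM + 1) for the 11088 genes with a mean of at least 1 TPM over the 12 libraries, and a gene was called at a Benjamini-Hochberg adjusted p below 0.05. Of all tested genes, 22.9% were called higher and 50.1% lower in Huh-7, 73% in all. Members that passed the expression limit through Huh-7 alone had to differ, so the count is a description of the list. Of the 36 tested members, 35 had all 3 Huh-7 si-NC libraries above all 3 MHCC-97H si-NC libraries and 0 had them all below. Of all tested genes, 23.4% and 49.6% did so. Without any expression limit the counts were 50 and 0 of the 59 genes, for which no share over all identifiers is given. The median difference was 4.32 on the log2(TPM + 1) scale for the tested members and -0.49 for all tested genes, and for members at 0 in MHCC-97H the difference depends on the added 1 TPM. With trimmed-mean scaling between libraries the median of all genes moved to 0.04, and higher calls made up 53% of the calls instead of 31.4%. All 37 members then tested were called higher. In either direction, 7827 of the 11003 genes then tested stood at an unadjusted limma p below 0.05. Here too, members that passed the limit through Huh-7 alone had to differ. Each line was 1 culture line, so line and any culture or library difference cannot be told apart.

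Carriers held the highest levels of the list. They summed to 6118 ± 798 TPM in Huh-7 si-CENPU and 5301 ± 67.9 TPM in Huh-7 si-NC, against 11.7 ± 1.78 TPM in MHCC-97H si-CENPU and 10.8 ± 0.973 TPM in MHCC-97H si-NC (SD, n = 3 each). All 12 tested carriers were called higher in Huh-7 si-NC, with a median log2 difference of 6.37. All but RBP4 passed the expression limit through Huh-7 alone and had to differ, so that count is a description. AMBP, the precursor of alpha-1-microglobulin and bikunin (ENSG00000106927, chromosome 9, 114060127 to 114078472, minus strand), stood at 1969, 2345 and 2293 TPM in si-CENPU-treated Huh-7 and 1787, 1986 and 2126 TPM in si-NC-treated Huh-7. Its MHCC-97H values were 0.33, 0.14 and 0.11 TPM with si-CENPU and 0.16, 0.03 and 0.1 TPM with si-NC. Every Huh-7 library lay above 1000 TPM and every MHCC-97H library below 1 TPM. TTR, which carries thyroid hormone and retinol-binding protein (ENSG00000118271, chromosome 18, 31557010 to 31599021, plus strand), stood at 1820.4, 2598 and 2185 TPM in si-CENPU-treated Huh-7 and 2085, 1774 and 1716 TPM in si-NC-treated Huh-7. Its MHCC-97H values were 0.57, 0 and 0.3 TPM with si-CENPU and 0.11, 0.27 and 0 TPM with si-NC. The si-CENPU and si-NC groups overlapped in both lines and the lines stood far apart. The line difference of AMBP (log2 difference 10.81, SE 0.11, limma adjusted p = 1.09e-14) and that of TTR (log2 difference 10.69, SE 0.18, limma adjusted p = 4.34e-13) were the 2 largest of the list. Since MHCC-97H was near 0, both depend on the added 1 TPM. Both genes passed the expression limit through Huh-7 alone, so their adjusted p are descriptions.

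RBP4, the plasma carrier of retinol (ENSG00000138207, chromosome 10, 93591687 to 93601744, minus strand), was the carrier that MHCC-97H expressed at more than 1 TPM. It stood at 889, 1247 and 1098 TPM in si-CENPU-treated Huh-7 and 865, 879 and 896 TPM in si-NC-treated Huh-7. The MHCC-97H libraries read 12.2, 11.6 and 8.49 TPM with si-CENPU and 11.3, 10.6 and 9.35 TPM with si-NC. The means of the si-NC groups differed 84.5-fold between the lines (log2 difference 6.27, SE 0.14, limma adjusted p = 7.04e-12), and no Huh-7 library overlapped an MHCC-97H library. RBP4 ranked 176th by mean TPM among all identifiers in Huh-7 si-NC and 3982nd in MHCC-97H si-NC.

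HPX, which binds free heme (ENSG00000110169), stood at 153, 150.2 and 153 TPM in si-CENPU-treated Huh-7 and 147, 152 and 164 TPM in si-NC-treated Huh-7, a narrow spread in both groups. In MHCC-97H it was listed at 0.22, 0.13 and 0.81 TPM with si-CENPU and 0.04, 0.09 and 0.29 TPM with si-NC. ORM1 encodes an acute-phase carrier of basic drugs (ENSG00000229314, chromosome 9, 114323056 to 114326475, plus strand) and stood at 119.9, 172 and 159 TPM in si-CENPU-treated Huh-7 and 102, 139 and 126 TPM in si-NC-treated Huh-7. MHCC-97H listed it at 0, 0 and 0.07 TPM with si-CENPU and 0, 0 and 0 TPM with si-NC. TF, the iron carrier transferrin (ENSG00000091513), stood at 86.9, 66.2 and 94.6 TPM in si-CENPU-treated Huh-7 and 60.6, 105 and 107 TPM in si-NC-treated Huh-7. Its MHCC-97H values were 0.04, 0.04 and 0.02 TPM with si-CENPU and 0.02, 0.03 and 0.02 TPM with si-NC. All 3 were separated between the lines, with differences of 7.09, 6.94 and 6.44 on the log2(TPM + 1) scale. ALB, albumin itself (ENSG00000163631, chromosome 4, 73397114 to 73421412, plus strand), was not the top carrier of Huh-7: it stood at 88.3, 57.5 and 96.6 TPM in si-CENPU-treated Huh-7 and 53.4, 104 and 94.8 TPM in si-NC-treated Huh-7. In MHCC-97H 1 si-CENPU library listed ALB at 0.03 TPM and the other 5 libraries at 0. Among the remaining carriers, SAA4 averaged 90.3 and 82.3 TPM in Huh-7 si-CENPU and si-NC, A1BG 2.9 and 2.61 TPM and the copper protein CP 0.683 and 0.363 TPM, and all 3 stood at or under 0.02 TPM in every MHCC-97H library. The thyroxine-binding globulin gene SERPINA7 was listed at 0.05, 0.03 and 0 TPM in si-CENPU-treated Huh-7 and at 0 in all other libraries.

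Of the other secreted proteins, VTN was high in Huh-7 and among the few still expressed in MHCC-97H. All 5 tested genes of the class were called higher in Huh-7 si-NC, with a median log2 difference of 5.62. All but VTN passed the expression limit through Huh-7 alone, so that count is a description. VTN encodes vitronectin, a plasma and matrix protein that binds integrins and the inhibitor PAI-1 (ENSG00000109072, chromosome 17, 28367276 to 28373091, minus strand), and stood at 475, 443 and 485 TPM in si-CENPU-treated Huh-7 and 407, 472 and 544 TPM in si-NC-treated Huh-7. MHCC-97H held 6.21, 6.43 and 5.9 TPM with si-CENPU and 5.05, 6.22 and 5.33 TPM with si-NC. The si-NC means differed 85.7-fold between the lines (log2 difference 6.18, SE 0.11, limma adjusted p = 7.66e-13). AGT, the precursor of angiotensin (ENSG00000135744), stood at 63.8, 71.1 and 81.5 TPM in si-CENPU-treated Huh-7 and 51.2, 69.3 and 74.5 TPM in si-NC-treated Huh-7. It was listed at 0.37, 0.23 and 0.28 TPM with si-CENPU and 0.44, 0.31 and 0.24 TPM with si-NC, so each MHCC-97H library held a value above 0 and below 0.5 TPM. SERPINF1 encodes the secreted factor PEDF (ENSG00000132386) and stood at 54.9, 69.8 and 67.2 TPM in si-CENPU-treated Huh-7 and 56.2, 59.0 and 67.5 TPM in si-NC-treated Huh-7. Its MHCC-97H libraries read 0.08, 0 and 0.25 TPM with si-CENPU and 0.19, 0.08 and 0 TPM with si-NC. Both AGT (log2 difference 5.62, SE 0.15, limma adjusted p = 2.45e-11) and SERPINF1 (log2 difference 5.83, SE 0.14, limma adjusted p = 7.45e-12) were called higher in Huh-7 si-NC. Since Huh-7 alone brought AGT and SERPINF1 over the expression limit, these adjusted p are descriptions. LRG1, an acute-phase glycoprotein, averaged 24.6 and 21.7 TPM in Huh-7 si-CENPU and si-NC against 0.633 and 0.703 TPM in MHCC-97H si-CENPU and si-NC. The fetuin genes AHSG and FETUB lie beside each other on chromosome 3, yet AHSG averaged 19.9 and 16.7 TPM in Huh-7 si-CENPU and si-NC, and FETUB stood at or under 0.41 TPM in every library.

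Fibrinogen chains and prothrombin were the highest coagulation genes in Huh-7. All 6 tested genes of the class were called higher in Huh-7 si-NC, with a median log2 difference of 4.32. All but F12 and F10 passed the expression limit through Huh-7 alone, so that count is a description. FGA, the alpha chain (ENSG00000171560, chromosome 4, 154583126 to 154590766, minus strand), stood at 40.5, 32.3 and 43.1 TPM in si-CENPU-treated Huh-7 and 37.6, 52.9 and 53.0 TPM in si-NC-treated Huh-7. In MHCC-97H it was listed at 0.04, 0 and 0.04 TPM with si-CENPU and 0, 0 and 0 TPM with si-NC. FGB, the beta chain (ENSG00000171564, chromosome 4, 154562956 to 154571086, plus strand), stood at 22.4, 10.4 and 21.9 TPM in si-CENPU-treated Huh-7 and 14.2, 31.0 and 24.8 TPM in si-NC-treated Huh-7. MHCC-97H listed it at 0, 0 and 0.11 TPM with si-CENPU and 0, 0 and 0 TPM with si-NC. FGG, the gamma chain, averaged 19.2 ± 3.81 and 20.2 ± 6.96 TPM in Huh-7 si-CENPU and si-NC (SD, n = 3 each) and at most 0.03 TPM in any MHCC-97H library. The chains share 1 locus on chromosome 4, and each had its 2 lowest Huh-7 values in si-CENPU replicate 2 and si-NC replicate 1. F2, prothrombin (ENSG00000180210), stood at 19.8, 21.2 and 24.4 TPM in si-CENPU-treated Huh-7 and 14.5, 18.9 and 23.4 TPM in si-NC-treated Huh-7. Its MHCC-97H values were 0.09, 0.1 and 0 TPM with si-CENPU and 0, 0 and 0 TPM with si-NC. Within Huh-7 the groups overlapped for FGA, FGB and F2, the MHCC-97H groups met at 0, and the lines did not overlap.

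F12 and F10 were the coagulation genes that MHCC-97H expressed. F12, which starts the contact pathway (ENSG00000131187), stood at 17.8, 14.0 and 18.1 TPM in si-CENPU-treated Huh-7 and 18.7, 18.4 and 19.0 TPM in si-NC-treated Huh-7. In MHCC-97H the values were 2.31, 2.43 and 2.37 TPM with si-CENPU and 2.14, 2.54 and 2.17 TPM with si-NC. F10, the protease that forms thrombin (ENSG00000126218), stood at 13.3, 13.8 and 14.2 TPM in si-CENPU-treated Huh-7 and 10.7, 10.7 and 15.3 TPM in si-NC-treated Huh-7. Its MHCC-97H libraries read 1.61, 1.24 and 1.25 TPM with si-CENPU and 1.61, 0.99 and 1.1 TPM with si-NC. The si-NC means were 8.19-fold apart for F12 (log2 difference 2.59, SE 0.11, limma adjusted p = 2.22e-09) and 9.92-fold for F10 (log2 difference 2.56, SE 0.16, limma adjusted p = 4.55e-08). Factor VII (F7), encoded next to F10 on chromosome 13, averaged 1.62 and 1.6 TPM in Huh-7 si-CENPU and si-NC and at most 0.01 TPM in any MHCC-97H library. KNG1, kininogen, averaged 1.39 and 1.65 TPM and F5, factor V, 0.61 and 0.597 TPM in the same Huh-7 groups, with MHCC-97H at 0. F9, factor IX, was listed at 0 in all 12 libraries. F11 reached at most 0.07 TPM and F13B at most 0.16 TPM, in Huh-7 only among these libraries.

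Among anticoagulant and fibrinolytic genes, SERPINF2 and PROC were the highest. Of the 6 tested genes, 5 were called higher in Huh-7 si-NC, with a median log2 difference of 2.81 over the class. SERPINA5, SERPINC1 and SERPIND1 passed the expression limit through Huh-7 alone, so their calls are descriptions. SERPINF2 encodes alpha-2-antiplasmin, the main plasmin inhibitor (ENSG00000167711), and stood at 83.0, 76.1 and 87.5 TPM in si-CENPU-treated Huh-7 and 82.2, 91.5 and 102 TPM in si-NC-treated Huh-7. Its MHCC-97H values were 1.15, 0.76 and 0.97 TPM with si-CENPU and 1.21, 0.96 and 1.28 TPM with si-NC. PROC encodes protein C, which inactivates factors V and VIII (ENSG00000115718), and stood at 51.2, 47.6 and 49.3 TPM in si-CENPU-treated Huh-7 and 50.1, 53.2 and 51.2 TPM in si-NC-treated Huh-7. Its MHCC-97H values were 1.76, 1.69 and 2.19 TPM with si-CENPU and 1.85, 1.83 and 1.86 TPM with si-NC. The si-NC means were 79.9-fold apart for SERPINF2 and 27.9-fold for PROC, with adjusted p of 4.56e-12 and 5.04e-12 in limma. SERPINA5, the protein C inhibitor (ENSG00000188488), stood at 8.17, 6.66 and 9.08 TPM in si-CENPU-treated Huh-7 and 5.98, 8.43 and 9.07 TPM in si-NC-treated Huh-7 and was at 0 in all 6 MHCC-97H libraries. Antithrombin (SERPINC1) and heparin cofactor II (SERPIND1) were likewise at 0 in MHCC-97H. In Huh-7 si-CENPU and si-NC, SERPINC1 averaged 4.73 and 4.72 TPM and SERPIND1 3.97 and 4.32 TPM. Plasminogen (PLG) averaged 0.79 and 0.86 TPM and CPB2, which slows fibrinolysis, 0.95 and 1.21 TPM in those groups.

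PROS1 was the tested member whose lines were not separated. It encodes protein S, the cofactor of protein C (ENSG00000184500, chromosome 3, 93873033 to 93980003, minus strand), and stood at 1.86, 1.07 and 1.69 TPM in si-CENPU-treated Huh-7 and 1.2, 2.15 and 1.72 TPM in si-NC-treated Huh-7. The MHCC-97H libraries read 1.46, 1.5 and 0.86 TPM with si-CENPU and 1.72, 1.49 and 1.02 TPM with si-NC. All 4 groups overlapped. The line difference was 0.15 (SE 0.20) with a limma adjusted p of 0.498, and under trimmed-mean and quantile scaling, which shift all genes toward Huh-7, PROS1 was called higher in Huh-7. Of the 6 vitamin K-dependent members, F2, F10 and PROC were called higher in Huh-7 si-NC, PROS1 was not, and F7 and F9 lay under the expression limit.

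SERPINA1 dominated the protease inhibitors, of which all 5 tested were called higher in Huh-7 si-NC with a median log2 difference of 4.18. All 5 passed the expression limit through Huh-7 alone and had to differ, so that count is a description. SERPINA1 had the highest level of the class. It encodes alpha-1-antitrypsin, the main inhibitor of neutrophil elastase (ENSG00000197249, chromosome 14, 94376747 to 94390693, minus strand), and stood at 324, 334 and 380.5 TPM in si-CENPU-treated Huh-7 and 239, 356 and 409 TPM in si-NC-treated Huh-7. In MHCC-97H it was listed at 0, 0 and 0.03 TPM with si-CENPU and 0, 0.03 and 0 TPM with si-NC. SERPINA3, alpha-1-antichymotrypsin (ENSG00000196136), stood at 29.9, 50.3 and 43.6 TPM in si-CENPU-treated Huh-7 and 31.2, 32.3 and 32.8 TPM in si-NC-treated Huh-7. Its MHCC-97H libraries read 0, 0 and 0 TPM with si-CENPU and 0, 0.04 and 0 TPM with si-NC. SERPING1, the C1 inhibitor (ENSG00000149131), stood at 18.3, 17.7 and 20.6 TPM in si-CENPU-treated Huh-7 and 16.2, 21.3 and 23.9 TPM in si-NC-treated Huh-7. MHCC-97H held 0.15, 0.16 and 0.15 TPM with si-CENPU and 0.16, 0.15 and 0.2 TPM with si-NC, low but above 0 in every library. The lines differed, on the log2(TPM + 1) scale, by 8.34, 5.03 and 4.18, and no Huh-7 library overlapped an MHCC-97H library. SERPINA6, SERPINA1, SERPINA5 and SERPINA3 form a cluster on chromosome 14, and their Huh-7 si-NC means ran from 7.83 TPM (SERPINA5) to 335 TPM (SERPINA1). Alpha-2-macroglobulin (A2M) averaged 16.3 and 16.2 TPM in Huh-7 si-CENPU and si-NC. Of the inter-alpha-trypsin inhibitor heavy chain genes, ITIH2 averaged 8.97 and 8.8 TPM in those groups, whereas ITIH1, ITIH3 and ITIH4, all on chromosome 3, averaged under 0.5 TPM.

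C3 was the member that MHCC-97H expressed most. Complement genes summed to 83.1 ± 8.28 TPM in Huh-7 si-CENPU and 87.4 ± 19.8 TPM in Huh-7 si-NC, against 23.0 ± 5.91 TPM in MHCC-97H si-CENPU and 23.8 ± 5.91 TPM in MHCC-97H si-NC (SD, n = 3 each). C3 is the central complement protein, cleaved by all activation pathways (ENSG00000125730, chromosome 19, 6677704 to 6730562, minus strand), and stood at 65.0, 79.1 and 79.9 TPM in si-CENPU-treated Huh-7 and 64.8, 70.9 and 98.7 TPM in si-NC-treated Huh-7. In MHCC-97H the values were 26.1, 20.7 and 15.4 TPM with si-CENPU and 26.6, 22.1 and 15.8 TPM with si-NC. The si-NC means were 3.64-fold apart (log2 difference 1.82, SE 0.23, limma adjusted p = 2.32e-05). CFB, the protease of the alternative pathway (ENSG00000243649, chromosome 6, 31945650 to 31952084, plus strand), stood at 3.97, 3.74 and 4.37 TPM in si-CENPU-treated Huh-7 and 3.28, 4.22 and 4.42 TPM in si-NC-treated Huh-7. Its MHCC-97H libraries read 2.52, 1.75 and 1.88 TPM with si-CENPU and 2.77, 1.77 and 1.9 TPM with si-NC. Huh-7 and MHCC-97H libraries did not overlap, with si-NC means 1.85-fold apart (log2 difference 0.67, SE 0.16, limma adjusted p = 0.00283). CFB shares sequence with a second annotated gene. AL645922.1, a protein-coding locus of chromosome 6 (31927698 to 31952048, plus strand), holds 2249 of the 4997 exon bases of CFB on the same strand. AL645922.1 stood at 119.0, 171.8 and 138.9 TPM in si-CENPU-treated Huh-7 and 113.0, 119.4 and 113.8 TPM in si-NC-treated Huh-7, against 0.21, 0.36 and 0.11 TPM in si-CENPU-treated MHCC-97H and 0.32, 0.12 and 0.16 TPM in si-NC-treated MHCC-97H. The sum of both genes differed 50.9-fold between the si-NC groups, where CFB alone differed 1.85-fold, and which gene the reads came from was not tested.

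CFI, which cleaves C3b and C4b (ENSG00000205403), stood at 2.2, 1.02 and 1.7 TPM in si-CENPU-treated Huh-7 and 0.69, 2.48 and 2.01 TPM in si-NC-treated Huh-7. In MHCC-97H it was listed at 0.04, 0 and 0 TPM with si-CENPU and 0, 0.31 and 0 TPM with si-NC. The Huh-7 groups overlapped and stood above MHCC-97H. AC126283.2, a protein-coding locus of chromosome 4 (109713916 to 109801999, minus strand), holds 1562 of the 4875 exon bases of CFI on the same strand. It averaged 5.82 and 6.19 TPM in Huh-7 si-CENPU and si-NC, and which gene the reads came from was not tested. Of the members in the membrane attack complex, C5 averaged 1.32 and 1.4 TPM in Huh-7 si-CENPU and si-NC, C8A 0.55 and 0.693 TPM, and C8B 0.16 and 0.233 TPM. C6 stood at or under 0.18 TPM in every library. C9 was listed at 0.01 TPM in 1 Huh-7 si-NC library and at 0 in the other 11 libraries. The third C8 chain, C8G, is not on the list and averaged 6.12 and 5.1 TPM in Huh-7 si-CENPU and si-NC. C4BPA, which restrains the classical pathway, averaged 0.467 and 0.6 TPM in Huh-7 si-CENPU and si-NC. MASP2, the protease of the lectin pathway, averaged 0.26 and 0.583 TPM in Huh-7 si-CENPU and si-NC.

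**Figure D2:**
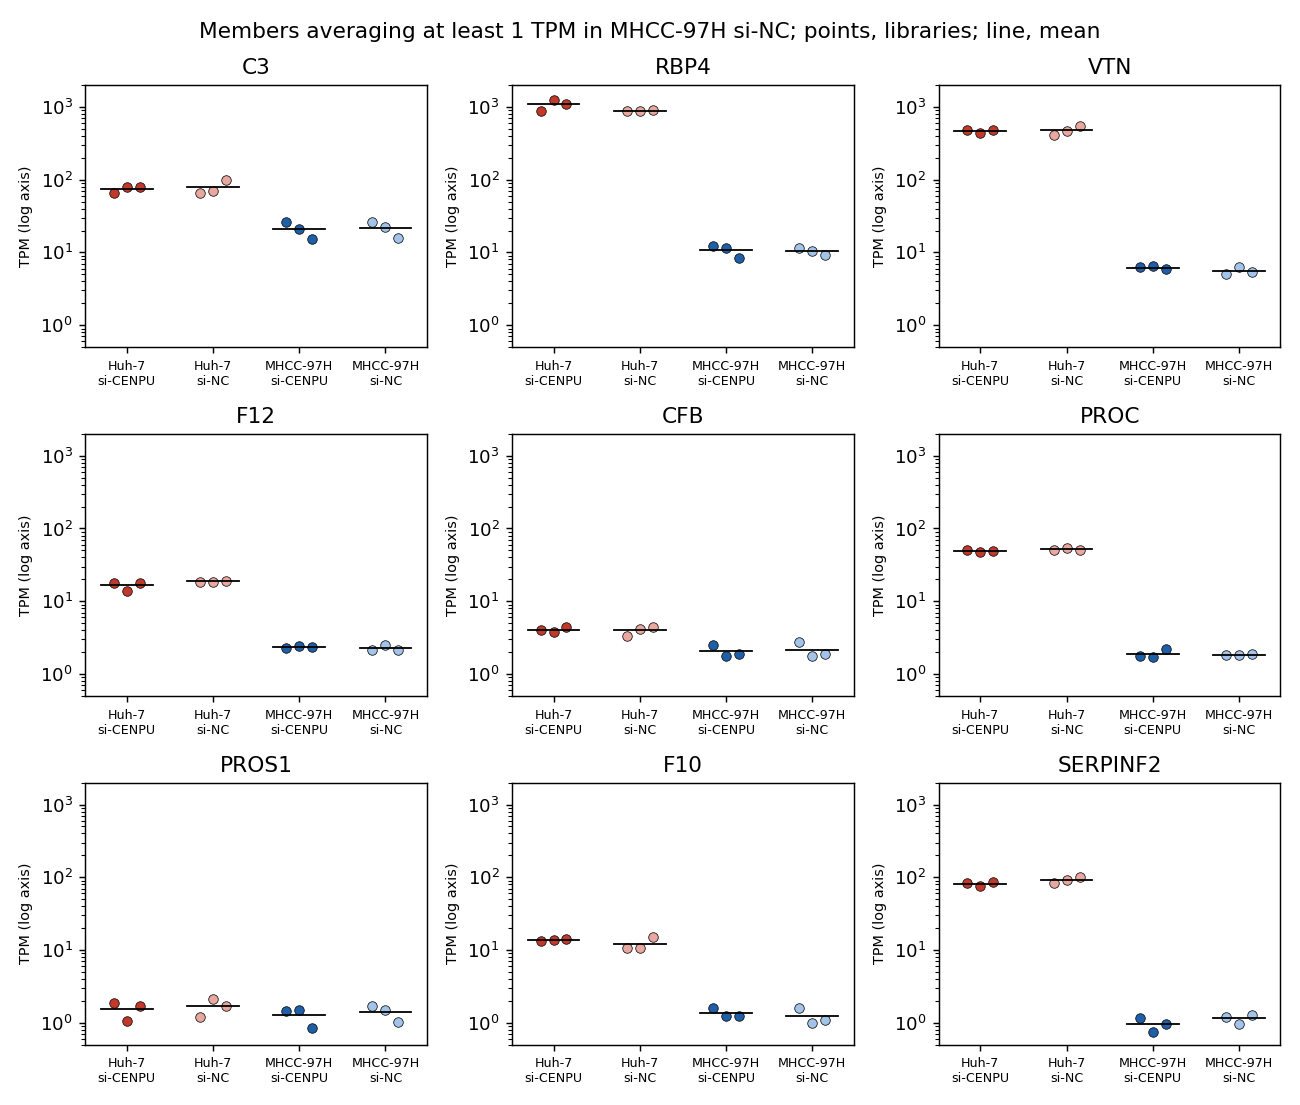
TPM on a log axis for the 9 members that averaged at least 1 TPM in MHCC-97H si-NC, with a point per library and a line at each group's mean. RBP4, VTN and SERPINF2 show the widest distance between the lines, C3 and CFB a small one, and PROS1 overlaps in all 4 groups.

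Shared sequence limits some of these values. Exons of 22 members shared bases with another annotated gene, 13 of them with a protein-coding gene and 12 with a gene on the opposite strand, and the strand setting of the counting is not given in the sources used here. A1BG averaged 2.9 TPM in Huh-7 si-CENPU and 2.61 TPM in Huh-7 si-NC, while AC012313.3, which shares 1622 of its exon bases on the same strand, averaged 202 and 161 TPM in those groups. For VTN the overlapping AC002094.3 averaged 73.4 and 62.2 TPM in Huh-7 si-CENPU and si-NC and was at 0 in MHCC-97H. For F12 the opposite-strand neighbour GRK6, which shares 399 exon bases, averaged between 33.5 and 36.3 TPM in all 4 groups. The longest transcripts of ORM1 and ORM2 were 90.9% identical, so the division of reads between them is uncertain. These partners were picked after their values were seen.

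Other genes for secreted proteins did not all lie higher in Huh-7. Among 48 other plasma proteins, 23 were tested, of which 12 were called higher in Huh-7 si-NC and 9 higher in MHCC-97H si-NC. Of all tested genes, 22.9% were called higher in Huh-7 si-NC and 50.1% higher in MHCC-97H si-NC. The iron hormone HAMP had 144, 117 and 118 TPM in si-NC-treated Huh-7 and 0.23, 0 and 0 TPM in si-NC-treated MHCC-97H. The fetal albumin relative AFP had 213, 389 and 317 TPM in si-NC-treated Huh-7 and 0.09, 0 and 0 TPM in si-NC-treated MHCC-97H. The acute-phase protein SAA1 averaged 318 ± 26.9 TPM in Huh-7 si-NC and 11.2 ± 1.94 TPM in MHCC-97H si-NC (SD, n = 3 each). In the opposite direction, complement factor D (CFD) averaged 68.5 ± 3.77 TPM in Huh-7 si-NC and 323 ± 10.5 TPM in MHCC-97H si-NC, and the classical pathway protease C1R 1.14 ± 0.201 and 31.2 ± 5.96 TPM (SD, n = 3 each). These last 2 were named after their values were seen. The membrane regulators CD55, CD59 and CD46, which protect cells from complement, were all 3 called lower in Huh-7, as were 50.1% of all tested genes. CD55 averaged 1.15 ± 0.361 TPM in Huh-7 si-NC and 38.7 ± 9.72 TPM in MHCC-97H si-NC, CD59 4.65 ± 1.39 and 33.1 ± 9.4 TPM, and CD46 1.83 ± 0.106 and 8.86 ± 2.09 TPM (SD, n = 3 each).

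Of 15 tested liver transcription factors, 10 were called higher in Huh-7 si-NC and 2, RXRA and CEBPB, higher in MHCC-97H si-NC. The shares over all tested genes were 22.9% and 50.1%. FOXA3 had 28.1, 28.3 and 30.7 TPM in the si-NC libraries of Huh-7 and 0.02, 0 and 0 TPM in those of MHCC-97H. The bile acid-responsive repressor NR0B2 had 34.9, 32.3 and 32.1 TPM in si-NC-treated Huh-7 and 0.18, 0 and 0 TPM in si-NC-treated MHCC-97H. CEBPA, a C/EBP factor, averaged 177 ± 19.2 TPM in Huh-7 si-NC and 11.9 ± 0.724 TPM in MHCC-97H si-NC (SD, n = 3 each). HNF4A, named after its values were seen, had 8.44, 12.2 and 12.3 TPM in the si-NC libraries of Huh-7 and 0.7, 0.58 and 0.37 TPM in those of MHCC-97H. Of 13 tested genes of acute-phase signalling, 2 were called higher and 6 lower in Huh-7, near the 22.9% and 50.1% of all tested genes. CEBPD averaged 313 ± 17.4 TPM in Huh-7 si-NC and 49.3 ± 10.8 TPM in MHCC-97H si-NC, and the NF-kappa-B subunit RELA 25.5 ± 3.82 and 65.7 ± 1.56 TPM (SD, n = 3 each). The cytokine IL6 had 0, 0.17 and 0.25 TPM in si-NC-treated Huh-7 and 2.9, 2.07 and 2.37 TPM in si-NC-treated MHCC-97H. Of 9 tested genes of the vitamin K cycle and of carboxylation, 2 were called higher and 6 lower, where 22.9% and 50.1% of all tested genes were. GGCX, the carboxylase of the vitamin K-dependent factors, averaged 65.0 ± 5.51 TPM in Huh-7 si-NC and 36.4 ± 4.62 TPM in MHCC-97H si-NC, while NQO1 averaged 21.9 ± 3.63 and 121 ± 6.89 TPM and AIFM2 10.2 ± 1.5 and 26.3 ± 2.36 TPM (SD, n = 3 each).

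The study's main comparison was knockdown against control in each line. In Huh-7, 0 of the 36 tested members passed the test between si-CENPU and si-NC, with every adjusted p at 1 in limma. Among all 11088 tested genes, 1 passed, or 0.00902%. At an unadjusted p below 0.05 stood 3 members, SERPINA6 and ORM2 on the higher side and HP on the lower, where 4.57% of all tested genes reached that level. Leaving out 1 Huh-7 library moved that count to between 0 (without si-CENPU replicate 2 or 3) and 7 (without si-CENPU replicate 1). The 36 differences ran from -0.35 to 0.36 on the log2(TPM + 1) scale, 21 above 0 and 15 below, where 52.3% of all tested genes lay above 0, with a median of 0.03 against 0.01 for all tested genes. Of the 36 tested members, groups did not overlap for 0 higher genes and 2 lower ones, HP and F12. Of all tested genes, 3.79% and 3.86% did so. Among the members under the expression limit, for which no share is given, only F13B did not overlap, on the higher side.

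SERPINA6, the cortisol-binding globulin (ENSG00000170099, chromosome 14, 94304248 to 94323394, minus strand), stood at 17.6, 27.7 and 21.9 TPM in si-CENPU-treated Huh-7 and 15.6, 17.2 and 18.1 TPM in si-NC-treated Huh-7. Of the si-CENPU libraries, 2 lay above all si-NC libraries and 1 lay among them. The difference was 0.36 on the log2(TPM + 1) scale (SE 0.15, unadjusted p = 0.0326). ORM2, the second orosomucoid gene (ENSG00000228278, chromosome 9, 114329869 to 114333252, plus strand), stood at 40.7, 62.8 and 52.6 TPM in si-CENPU-treated Huh-7 and 35.2, 44.3 and 41.6 TPM in si-NC-treated Huh-7. Again 2 si-CENPU libraries were higher than every si-NC library and 1 overlapped, with a difference of 0.34 on the log2(TPM + 1) scale (SE 0.15, unadjusted p = 0.042). HP, haptoglobin, which binds free haemoglobin (ENSG00000257017, chromosome 16, 72054592 to 72061055, plus strand), stood at 1.82, 1.89 and 1.85 TPM in si-CENPU-treated Huh-7 and 2.16, 2.54 and 2.79 TPM in si-NC-treated Huh-7. Every knockdown value was below every control value, with a difference of -0.29 on the log2(TPM + 1) scale (SE 0.12, unadjusted p = 0.0325). None of these 3 passed after adjustment, each with a limma adjusted p of 1. MHCC-97H listed SERPINA6, ORM2 and HP at 0 in all 6 libraries.

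The next smallest unadjusted p-values belonged to SERPINA3, FGA and ORM1, whose libraries are given above. SERPINA3 had 2 si-CENPU libraries above and 1 below the narrow si-NC range (log2 difference 0.32, SE 0.16, unadjusted p = 0.0676). FGA ran the other way, with 1 si-NC library inside the si-CENPU range and 2 above it (log2 difference -0.29, SE 0.15, unadjusted p = 0.0752). ORM1 overlapped between the groups (log2 difference 0.29, SE 0.15, unadjusted p = 0.077). SERPINA6, ORM2, ORM1 and SERPINA3 all stood highest in replicates 2 and 3 of si-CENPU. Leaving out si-CENPU replicate 2 brought the difference of SERPINA6 to 0.20 and that of ORM2 to 0.20. Leaving out si-CENPU replicate 1 brought them to 0.52 and 0.51, with limma adjusted p of 0.381 and 0.383. F12, which did not overlap, had a difference of -0.17 on the log2(TPM + 1) scale (SE 0.11, unadjusted p = 0.161). F13B read 0.08, 0.09 and 0.16 TPM in si-CENPU-treated Huh-7 and 0, 0.03 and 0.01 TPM in si-NC-treated Huh-7, with an exact permutation p of 0.1.

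**Figure D3:**
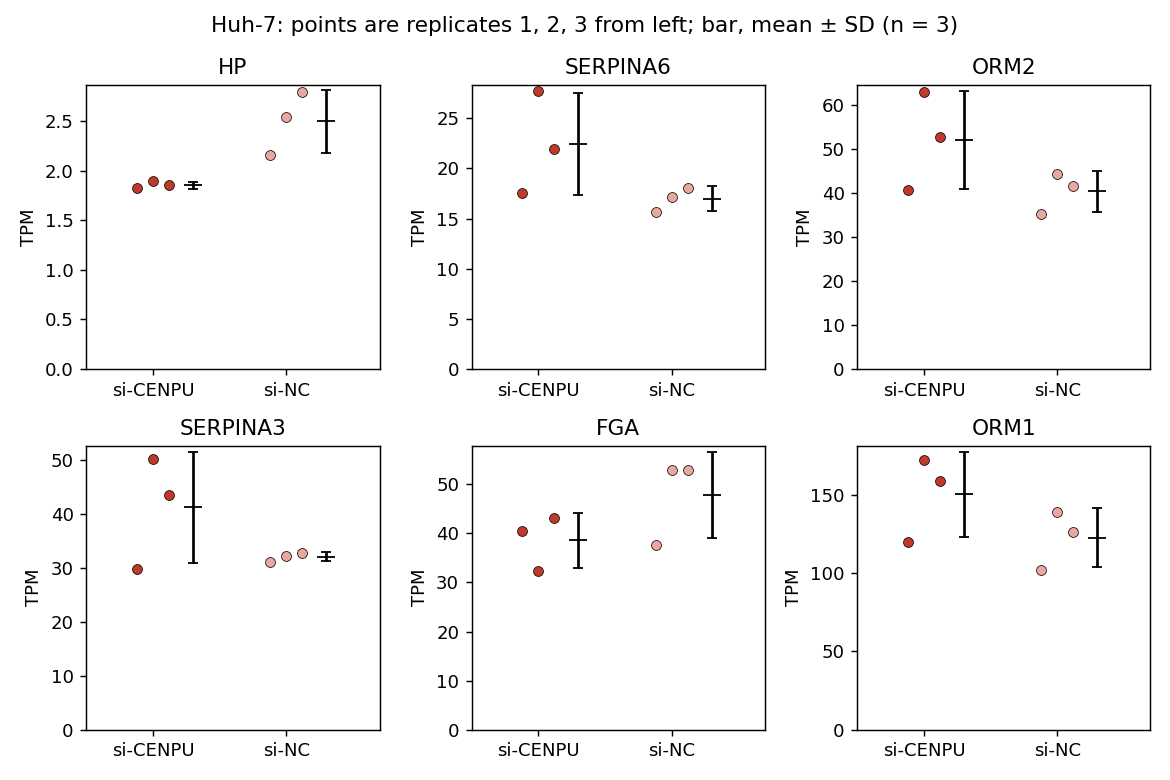
TPM of the 6 members with the smallest unadjusted p in Huh-7, with si-CENPU left of si-NC, a point per replicate and a bar for the mean ± SD of 3. HP alone has no overlap, with si-CENPU at 1.82 to 1.89 TPM and si-NC at 2.16 to 2.79 TPM.

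By class, carriers had 8 differences above 0 and 4 below in Huh-7 with a median of 0.14, the other secreted proteins 4 and 1 with a median of 0.16, and the protease inhibitors 4 and 1 with a median of 0.07. Coagulation genes had 2 above and 4 below with a median of -0.10, and anticoagulant and fibrinolytic genes 2 above and 4 below with a median of -0.07. Of the complement genes, C3 lay below 0 and CFB above. The 12 tested genes known to rise in the acute phase split 6 and 6. The 5 that fall in it (ALB, TTR, TF, RBP4 and AHSG) had 3 above and 2 below, with a median of 0.23. The balance of signs rested on single libraries: without si-NC replicate 1, 14 of 35 members lay above 0 with a median of -0.08, without si-CENPU replicate 3, 16 of 36 with a median of -0.02, without si-CENPU replicate 2, 25 of 36 with a median of 0.11, without si-NC replicate 2, 25 of 35 with a median of 0.10, and without si-NC replicate 3, 29 of 35 with a median of 0.13. No member of any class was called under these settings.

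In MHCC-97H the knockdown comparison bears on few members. Of the 36 tested, 27 averaged under 1 TPM there and passed the expression limit through Huh-7, so a change in them could hardly be called. The other 9 were RBP4, VTN, F10, F12, PROC, PROS1, SERPINF2, C3 and CFB. Of these 9 members, 0 passed between si-CENPU and si-NC and 0 stood at an unadjusted p below 0.05, where 0.00902% of all tested genes passed in limma and 3.42% stood at that level. With the expression limit applied within the line, an alternative run on 10700 genes, the same 9 were tested and their smallest adjusted p was 0.998. Over all 36, differences ran from -0.14 to 0.26. The smallest unadjusted p belonged to HPX, VTN, SERPINF2, AMBP, TTR and F10, and their libraries are given above. HPX differed by 0.26 (SE 0.16, unadjusted p = 0.139), with levels under 1 TPM and overlapping groups. VTN differed by 0.14 (SE 0.11, unadjusted p = 0.23) and SERPINF2 by -0.14 (SE 0.12, unadjusted p = 0.278), both with overlap. AMBP, TTR and F10 differed by 0.12, 0.18 and 0.09. C3, the most expressed member there, differed by -0.05 (SE 0.23, unadjusted p = 0.832). Of the 36 tested members, 0 stood all higher and 0 all lower, where 3.19% and 3.76% of the tested genes did. In the whole list only MASP2 did not overlap, at 0.37, 0.04 and 0.02 TPM with si-CENPU and 0, 0.01 and 0 TPM with si-NC. Its exact permutation p was 0.1, and it lay under the expression limit, for which no share is given.

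**Figure D4:**
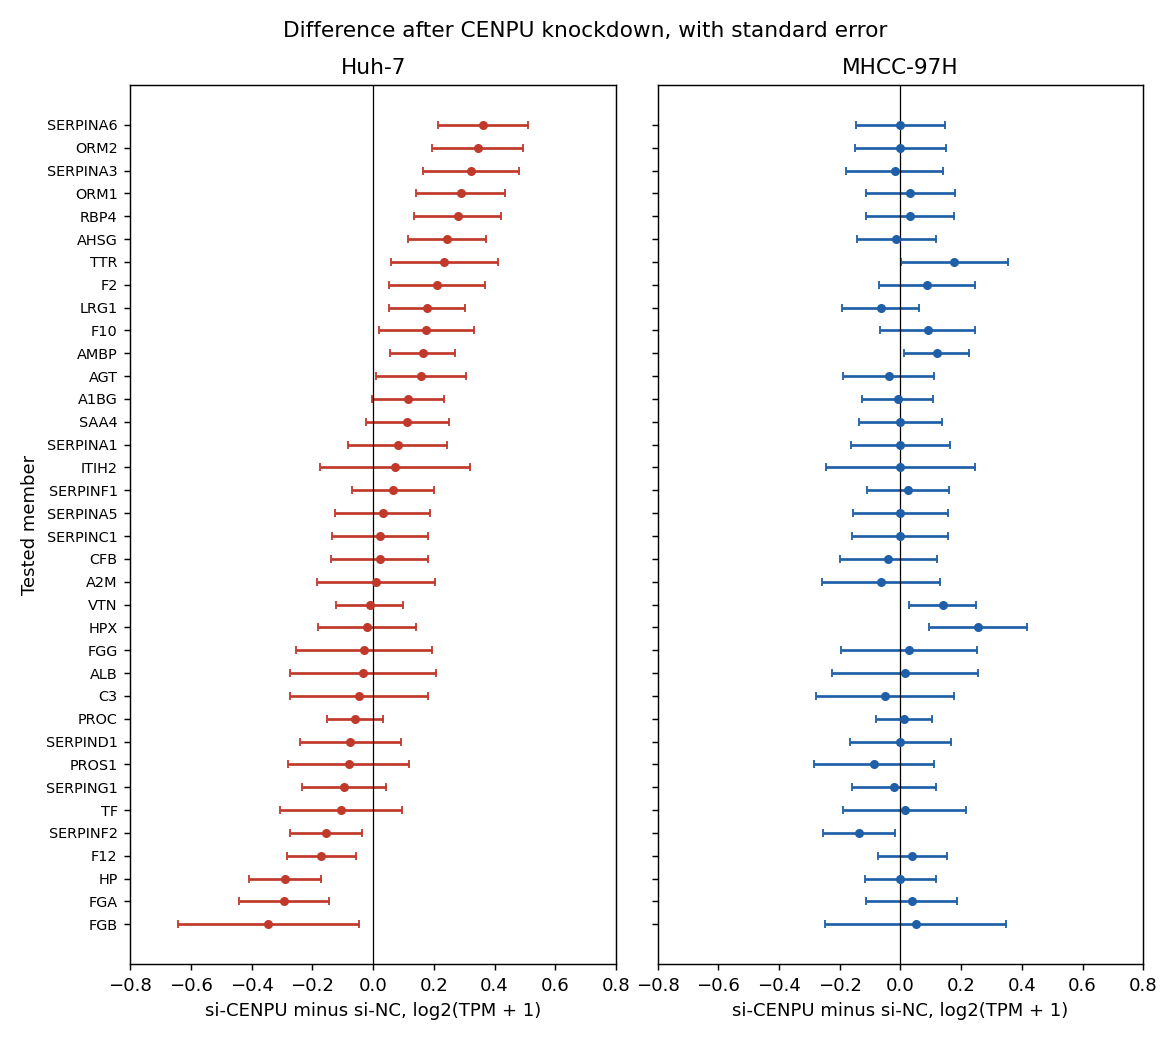
Difference si-CENPU minus si-NC on the log2(TPM + 1) scale with its standard error for the 36 tested members, Huh-7 on the left and MHCC-97H on the right, ordered by the Huh-7 value. Points run from -0.35 to 0.36 in Huh-7 and from -0.14 to 0.26 in MHCC-97H, and no member passed the test in either line.

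No tested member passed the test of a difference between the lines in their response to si-CENPU. For the 27 members under 1 TPM in MHCC-97H this difference sets the Huh-7 difference against one between values under 1 TPM, with a larger SE. For HPX it was -0.28, from -0.02 in Huh-7 and 0.26 in MHCC-97H. The comparison therefore bears on the other 9. Of these, 0 passed in limma and 0 stood at an unadjusted p below 0.05, where 0.00902% of all tested genes passed and 3.45% stood at that level. Over all 36 the smallest unadjusted p belonged to HP (-0.29, SE 0.17, unadjusted p = 0.112), SERPINA6 (0.36, SE 0.21, unadjusted p = 0.112), ORM2 (0.34, SE 0.21, unadjusted p = 0.132) and FGA (-0.33, SE 0.21, unadjusted p = 0.145). The first 3 were at 0 throughout MHCC-97H, so their difference of responses equals the difference in Huh-7. Of the related genes, 0 were called in either knockdown comparison among the other plasma proteins, the liver transcription factors, acute-phase signalling, the vitamin K cycle and the membrane complement regulators. At an unadjusted p below 0.05 there stood 1 of these genes in Huh-7 and 0 in MHCC-97H. It was NQO1, a quinone reductase, at 24.1, 32.9 and 28.9 TPM in si-CENPU-treated Huh-7 and 19.0, 26.0 and 20.7 TPM in si-NC-treated Huh-7, overlapping groups with a log2 difference of 0.37 and a limma adjusted p of 0.963.

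Libraries of Huh-7 deviated from their line mean in ways that cut across the siRNA groups. Of the 41 members that averaged at least 1 TPM in Huh-7, 38 lay above their line mean in si-CENPU replicate 3 and 33 in si-NC replicate 3, but 4 in si-NC replicate 1. Of all 9664 genes at that level with a length, 70.6%, 69.4% and 24.5% lay above their line mean in these libraries. Over the 41 members the deviation ran with the length of the longest transcript at a Spearman rho of -0.56 in si-CENPU replicate 2 and 0.529 in si-NC replicate 3, and at -0.243 and 0.156 over the 9664 genes at that level with a length. With GC content the rho over the members was 0.439 in si-CENPU replicate 2 and -0.132 in si-NC replicate 3. Over the 9664 genes it was 0.115 and -0.0323. In si-NC replicate 2 the rho over the members was 0.365 with length and -0.488 with GC content, and 0.164 and -0.332 over the 9664 genes. Genes of a library share its preparation and are not independent, so these values are descriptions. As examples, the short transcripts of ORM1, ORM2, RBP4 and TTR lay high, and the long ones of FGA and C5 low, in si-CENPU replicate 2. Not every gene followed length: FGB, at 1975 bases against 3678 for FGA, also lay low there, at 10.4 TPM. Without si-CENPU replicate 2 and si-NC replicate 1 together, an alternative chosen after seeing the data, 0 members were called, the median difference was -0.05, and SERPINA6 and ORM2 differed by 0.15 and 0.11 in place of 0.36 and 0.34. The parts of transcript length and GC content in these differences were not tested.

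**Figure D5:**
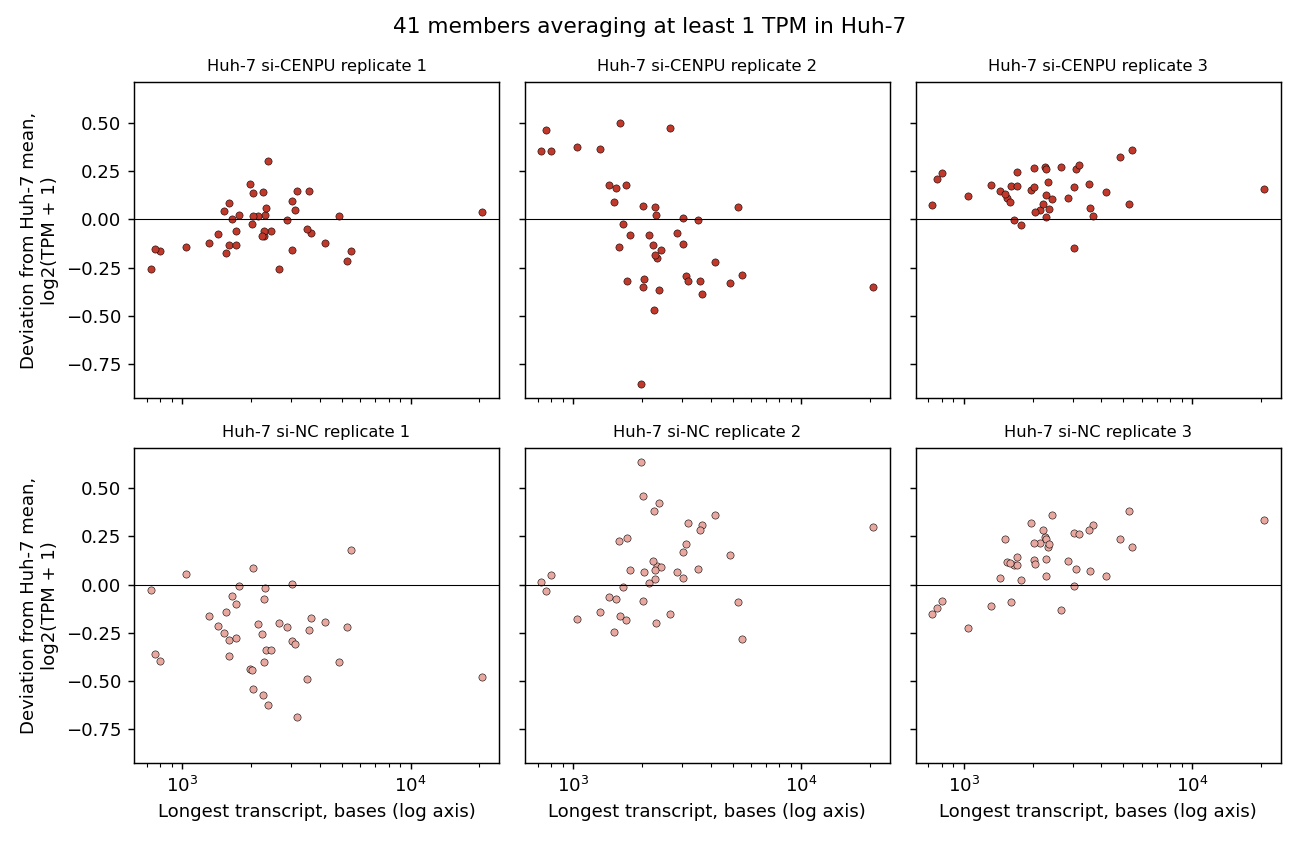
Deviation of each of 41 members from its Huh-7 mean on the log2(TPM + 1) scale against the length of its longest transcript on a log axis, 1 panel per Huh-7 library, with si-CENPU in the upper row. Points fall with length in si-CENPU replicate 2 (rho -0.56), climb in si-NC replicate 3 (rho 0.529) and lie almost all below 0 in si-NC replicate 1.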

How the data were processed

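RNA-seq of 12 samples from 2 hepatoma lines was analysed, 3 per group, grouped by cell line and treatment labels. Libraries were made from total RNA with the TruSeq RNA kit, per the labels' protocols. The authors deposited TPM per gene and library; HISAT2, StringTie and GRCh38.p13 are named in the submitters' processing notes, and their versions, the annotation release and the strand setting are not given in the sources used. TPM holds no counts, so depth per sample and its precision are unknown. No 2 columns held identical values.

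Symbols of the 59 genes were matched to Ensembl identifiers. Genes with a mean of at least 1 TPM over 12 samples (11088, 36 members) were tested with limma 3.58.1 in R 4.3.3 on log2(TPM + 1), 1 mean per group, with a mean-variance trend, Benjamini-Hochberg adjustment over all tested genes and a threshold of 0.05, after the script was checked on simulated data. Differences on this scale understate the change of low genes. The 23 members under the limit and CENPU had exact two-sided permutation tests. Members named with every library were the 3 highest of each class, the 6 with the smallest p per knockdown comparison, the 6 largest line differences and the 4 smallest p for the difference of responses; of related lists, up to 3 of smallest p. Other genes were named after their values were seen. Members and lists were chosen with earlier results of these data known. Alternatives changed the pseudocount, expression limit, scaling, fit, replicate block and libraries. Promoters came from RefSeq (GRCh38.p14). Some related genes and a promoter motif are not reported here.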

Additional observations from a re-analysis of the deposited data

How the results depend on the processing

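No member was called for si-CENPU in either line, or for the difference of responses, under any alternative run, and a member's adjusted p went no lower than 0.297 (Huh-7), 0.684 (MHCC-97H) and 0.733 (difference). Between the lines, 28 to 49 members were called higher. Members that passed an expression limit through Huh-7 alone had to differ, so counts under a limit are descriptions. Without a limit, 49 of 58 tested members were called higher. In that run 49 members and 13397 of 30267 genes stood at an unadjusted limma p below 0.05, and 35.5% of all calls were higher. All 28 members tested at a mean of at least 5 TPM were called higher. At that mean, genes called numbered 4405 of 5615, against 8099 of 11088 in the main run. Higher calls made up 33.1% and 31.4% of these. Leaving out 1 library gave 34 to 35. Named members, with 139 alternative values in Huh-7, 141 in MHCC-97H, 83 for the difference and 478 between the lines, all kept their side of the threshold, and none that was called changed direction. PROS1, which is not counted among these, was called higher in Huh-7 with trimmed-mean and quantile scaling.

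The counts of all genes called for si-CENPU, 1 in each line and 1 for the difference, changed with most settings, and the cause was not tested. In Huh-7 they were 11 at a pseudocount of 0.1, 4 without a limit, 0 at a mean of at least 5 TPM, 2 with trimmed-mean scaling, 3 with quantile normalization, 0 with the line alone and 2 without si-CENPU replicate 2 and si-NC replicate 1 together. In MHCC-97H they were 0 at a pseudocount of 0.1, 7 without a limit, 7 with quantile normalization, 2 when rescaled without the 100 most abundant genes, and 0 with the line alone or without the variance trend. For the difference they were 0 at pseudocounts of 0.1 and 0.5, 6 without a limit, 0 at a mean of at least 5 TPM, 2 with trimmed-mean scaling and 2 without the 2 Huh-7 libraries together. Leaving out 1 library gave 0 to 4 in each of the 3 comparisons. Same-numbered samples deviated together no more than others (r from -0.0914 to 0.134, and from -0.116 to 0.157 for different numbers). Whether same-numbered samples were handled together cannot be told from these values. With a replicate block 1 gene was called in Huh-7 and 0 in each of the other comparisons of si-CENPU. TPM at 2 decimals limits what can be said of the 23 members under the expression limit.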
